A study of Mus musculus with 8 samples.

Results

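The inner root sheath and companion layer keratins are the keratins of the sleeve that surrounds a growing hair. They were taken by gene symbol from a list of 9 genes, of which 8 were present among the 18540 genes of the count table. These were the type I keratins Krt25, Krt26, Krt27 and Krt28, the type II keratins Krt71, Krt72 and Krt73, and the companion layer keratin Krt75. Krt74, which RefSeq annotates in the mouse as a transcribed pseudogene, was not analysed here. All 8 passed the low-count filter and were among the 15147 genes tested.

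Transcriptome sequencing covered mouse wound skin from 4 control samples, whose wounds received PBS, and from 4 samples of wounds treated for 15 days with Z1C2Z, the ZnO2/CeO2@ZIF-8 composite with the higher CeO2 content. The samples are titled con and shiyan, and their numbers match those used in the study for its control and Z1C2Z samples, so they are called control-1, control-2 and so on and Z1C2Z-1, Z1C2Z-2 and so on here, with the numbers 1, 2, 3 and 5 among the controls and 1, 2, 4 and 5 among the treated samples. The study wounded diabetic db/db mice at 10 weeks of age and non-diabetic C57BL mice at 6 weeks, with 2 wounds of 10 mm on each back, and the sources used here do not say which strain gave the sequenced skin or whether samples shared a mouse. The p-values therefore measure the spread between these samples, which were counted as 1 replicate each. Per sample, 28856790 to 38974888 reads were counted on genes.

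A hair follicle is built of concentric layers. The inner root sheath has a Henle layer, a Huxley layer and a cuticle, which harden before the hair shaft does and mould it, and the companion layer lets this sheath slide along the outer root sheath. The sheath is made only while a hair grows, in the anagen phase, and is broken down above the level of the sebaceous gland. Keratin filaments are assembled from pairs of a type I and a type II keratin. In the human follicle, KRT25, KRT27, KRT28 and KRT71 are found through all layers of the inner root sheath, whereas KRT26, KRT72 and KRT73 are keratins of its cuticle. Mutations of KRT25, KRT71 or KRT74 cause woolly hair in people, and mutations of Krt71 give mice with a wavy coat.

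In the RefSeq annotation of the assembly GRCm38.p6, Krt25, Krt26, Krt27 and Krt28 are consecutive protein-coding genes on chromosome 11, beside Krt24 and Krt10. Krt71, Krt72 and Krt73 are consecutive protein-coding genes on chromosome 15, between Krt5 and Krt2, and Krt75 lies on the same chromosome beside Krt90. The count table names no genome build, so these positions describe the reference and not the counting. To show what stands just before the annotated starts in both groups of neighbouring genes and in Krt75, these 60 bases are given for 6 members, 5′ to 3′ on the gene's strand, with the letters TATAAA in capitals where they occur. They lie on the minus strand of GRCm38.p6 at chr11:99322952-99323011 (Krt25), chr11:99337966-99338025 (Krt26), chr11:99374904-99374963 (Krt28), chr15:101743098-101743157 (Krt71), chr15:101802361-101802420 (Krt73) and chr15:101573905-101573964 (Krt75).
Krt25: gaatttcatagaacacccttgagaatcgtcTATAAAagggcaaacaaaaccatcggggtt
Krt26: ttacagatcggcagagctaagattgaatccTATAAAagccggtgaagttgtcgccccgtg
Krt28: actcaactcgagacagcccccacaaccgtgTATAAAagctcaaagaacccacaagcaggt
Krt71: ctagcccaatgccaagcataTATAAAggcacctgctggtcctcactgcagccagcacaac
Krt73: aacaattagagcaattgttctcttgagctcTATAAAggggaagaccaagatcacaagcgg
Krt75: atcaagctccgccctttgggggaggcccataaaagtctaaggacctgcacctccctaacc

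TATAAA, the core of a TATA box, stood in these 60 bases in 6 of the 8 members, against 2.87% of the 32851 mouse promoters in the same RefSeq set. It began 30 bases before the start in Krt25, Krt26, Krt28 and Krt73, 40 bases before it in Krt71 and 15 bases before it in Krt27. Krt72 and Krt75 had no match in this window. Over the 250 bases before the start, searched on both strands, TATAAA occurred in 7 members and in 12.4% of all promoters, and the GATA motif AGATAA (reverse complement TTATCT) occurred in 4 members, Krt25, Krt27, Krt71 and Krt73, and in 9.99% of all promoters. The homeobox core TAATTG (reverse complement CAATTA) occurred in 4, Krt25, Krt26, Krt28 and Krt73, against 7.17% of all promoters, and the LEF1/TCF motif CTTTGAA (reverse complement TTCAAAG) in 0, against 4.46%. The CCAAT box CCAAT (reverse complement ATTGG) occurred in 4, Krt25, Krt28, Krt71 and Krt72, against 33.8%, and in Krt25 and Krt28 it shared letters with the homeobox match. The HOX core TTTATT (reverse complement AATAAA) occurred in 2, Krt26 and Krt75, against 18.1%. These are matches of letters and not measured binding sites.

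Compared with the control group, 6 of the 8 members were higher in the Z1C2Z group and 0 were lower, at an adjusted p under 0.05 in edgeR's quasi-likelihood test and a fold change over 2. Among all genes tested, 2.15% were called higher and 1.25% lower by the same rule. The members called were Krt25, Krt27, Krt28, Krt71, Krt73 and Krt75, with log2 fold changes from 1.87 to 2.82. Krt26 and Krt72 had the largest fitted changes of the 8, 3.14 and 3.10, and did not pass the test. The median log2 fold change was 2.46 over the 8 members and 0.01 over all genes tested. In bulk tissue, a change in the number of cells of a type and a change in RNA per cell cannot be told apart. This holds for every level below, higher or lower.

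**Figure D1:**
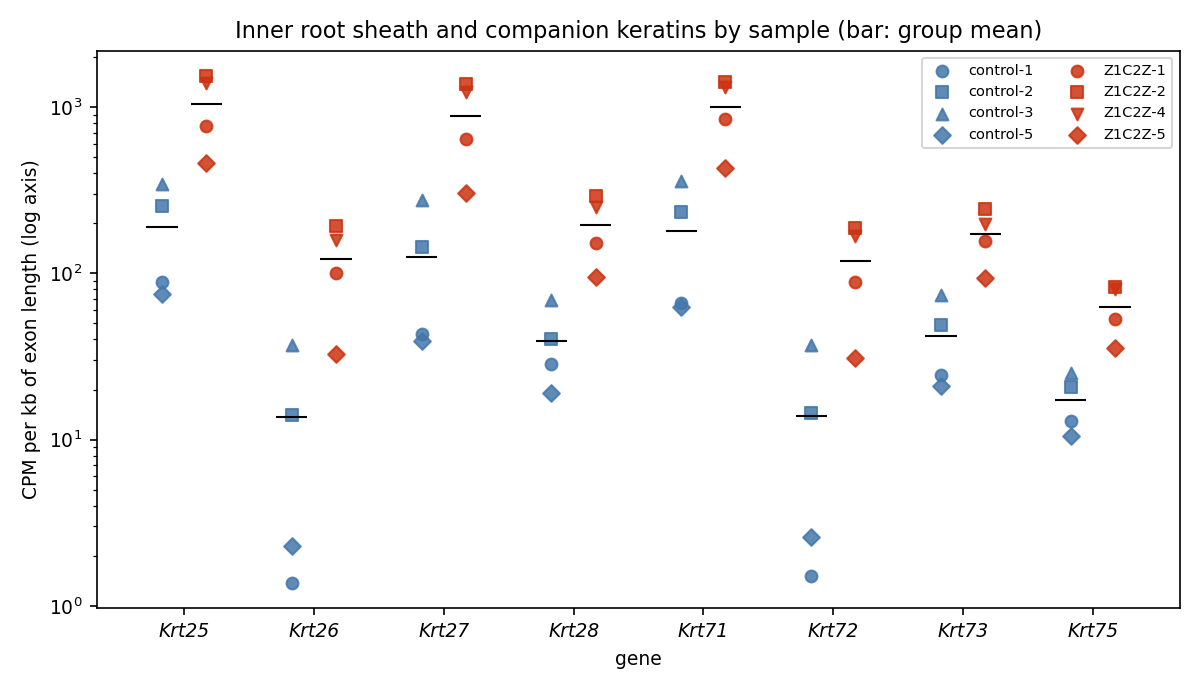
Level of each keratin in each sample, in CPM (counts scaled to an equal library size) per kb of exon length on a log axis, with control samples in blue, Z1C2Z samples in red and a bar at each group mean. For Krt71 the control samples lie between 62.8 and 359 and the Z1C2Z samples between 431 and 1423, while for Krt26 and Krt72 the sample Z1C2Z-5 lies below control-3.

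Krt71 encodes the type II keratin found through all inner root sheath layers. Its normalised level was 144, 510, 786 and 137 CPM in control samples 1, 2, 3 and 5, and 1863, 3110, 2884 and 941 CPM in Z1C2Z samples 1, 2, 4 and 5. CPM are counts scaled to an equal library size. The groups did not overlap, and the lowest treated sample was 1.2 times the highest control. Krt71 (Entrez 56735) rose from 394 ± 314 to 2200 ± 999 CPM (SD, n = 4 each), a log2 change of 2.48 (SE 0.62, adjusted p = 0.0449 in edgeR).

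Krt73, a type II keratin of the sheath cuticle, had 53.3, 106, 160 and 45.6 CPM in the control samples, in the same order, and 338, 529, 432 and 202 CPM in the Z1C2Z samples. Each treated sample was above each control. Krt73 (Entrez 223915) rose with a log2 change of 2.04 (SE 0.43, adjusted p = 0.0329 in edgeR).

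Krt72, the other cuticle keratin of type II, was nearly silent in control-1 and control-5, with 83 and 181 counts, and had 1014 counts in control-2 and 2610 in control-3. Its levels were 2.95, 28.1, 71.9 and 5.10 CPM in the control samples and 174, 366, 328 and 60.6 CPM in the Z1C2Z samples. Z1C2Z-5 lay below control-3, so the groups overlapped. The log2 change of Krt72 (Entrez 105866) was 3.10 with a standard error of 0.97 and an adjusted p in edgeR of 0.0786.

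Among the type I keratins, Krt25 had the highest level. It had 175, 505, 689 and 149 CPM in the control samples and 1539, 3057, 2780 and 912 CPM in the Z1C2Z samples. These groups were separate, with control-3 the highest control and Z1C2Z-5 the lowest treated sample. Krt25 (Entrez 70810) rose from 380 ± 262 to 2072 ± 1017 CPM (SD, n = 4 each), a log2 change of 2.45 (SE 0.57, adjusted p = 0.0380 in edgeR).

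Krt27 lies between Krt26 and Krt28 on chromosome 11. Its control samples had 66.8, 223, 428 and 60.9 CPM and its Z1C2Z samples 998, 2121, 1911 and 471 CPM. The groups were separate by a narrow margin, since Z1C2Z-5 was 1.1 times control-3. Krt27 (Entrez 16675) rose with a log2 change of 2.82 (SE 0.71, adjusted p = 0.0456 in edgeR), the largest of the 6 members called.

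Krt28 was measured at 46.2, 65.8, 112 and 30.8 CPM in the control samples and at 247, 471, 405 and 154 CPM in the Z1C2Z samples. No treated sample was as low as the highest control. Krt28 (Entrez 70843) rose with a log2 change of 2.33 (SE 0.45, adjusted p = 0.0303 in edgeR).

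Krt26, the type I cuticle keratin, had a wider spread over the control samples than its neighbours on chromosome 11. Its counts were 96 in control-1, 200 in control-5, 1249 in control-2 and 3339 in control-3, and 2918 to 18329 in the Z1C2Z samples. Its levels were 3.41, 34.7, 92.0 and 5.63 CPM in the control samples and 249, 475, 393 and 80.9 CPM in the Z1C2Z samples. As for Krt72, Z1C2Z-5 lay below control-3 and the other treated samples lay above all controls. The log2 change of Krt26 (Entrez 320864) was 3.14 with a standard error of 1.00 and an adjusted p in edgeR of 0.0807.

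Krt75 was listed as a keratin of the companion layer, the single cell layer on the outer face of the sheath. Whether its RNA came from that layer alone was not tested. It had 42.2, 67.2, 82.1 and 34.4 CPM in the control samples and 174, 270, 264 and 115 CPM in the Z1C2Z samples. The groups were separate, and Z1C2Z-5 was 1.4 times control-3, the widest gap of the 8 members. Krt75 (Entrez 109052) rose from 56.5 ± 22.1 to 206 ± 74.6 CPM (SD, n = 4 each). This log2 fold change of 1.87 (SE 0.34, adjusted p = 0.0300 in edgeR) was the smallest of the 8 fitted changes and had the smallest standard error.

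At any fold, an adjusted p under 0.05 with higher values was found for the same 6 members and for 4.28% of all genes tested. For these 6, all Z1C2Z samples were above all control samples, an ordering found in 8.45% of the genes tested. A two-sided exact permutation test of log2 CPM values over the 70 arrangements of 4 samples against 4 gave p = 0.0286 for each of these 6, the smallest value the design allows, and p = 0.0571 for Krt26 and Krt72. An unadjusted p under 0.05 in edgeR was found for all 8 members and for 28.0% of all genes tested. The calls lay close to the threshold, as did those of all genes, whose smallest adjusted p was 0.0232. In 5 fits that left out control-2, Z1C2Z-1, Z1C2Z-2, Z1C2Z-4 or control-5, 0 members were called by edgeR, although all 8 had an unadjusted p under 0.05 in each of these fits, as did 20.3% to 27.6% of all genes tested in them. Without control-1, 3 were called (Krt28, Krt73 and Krt75), without control-3 all 8 were, and without Z1C2Z-5 the count was 6. Over all genes, 282 of 15280 were called higher without control-1, 354 of 15271 without control-3 and 463 of 15287 without Z1C2Z-5. In the 5 fits above, the number of all genes called higher was 8 of 15287 without control-2 and 0 in each of the others. With DESeq2 in place of edgeR, all 8 were called higher, against 2.86% of all genes, and 0 lower, against 2.20%.

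The samples were ranked alike by the members. In all 8, the order within the treated group was Z1C2Z-2, Z1C2Z-4, Z1C2Z-1 and Z1C2Z-5 from high to low, and control-3 and then control-2 were the highest controls. Control-5 was the lowest control for 6 members and control-1 for Krt26 and Krt72. The first principal component of all genes tested, which held 62.2% of the variance, gave a similar order. From high to low it was Z1C2Z-4, Z1C2Z-2, Z1C2Z-1 and Z1C2Z-5, then control-3, control-2, control-1 and control-5. The shared order is thus not particular to the members. Summed over the 8 genes, the level was 535, 1539, 2420 and 469 CPM in control samples 1, 2, 3 and 5 and 5582, 10399, 9397 and 2938 CPM in Z1C2Z samples 1, 2, 4 and 5. The highest sample thus had 22.2 times the sum of the lowest. Over the 8 samples, which share their library and its scaling across genes, the pairwise Pearson correlations of log2 CPM between members lay between 0.955 and 0.999, and the difference between the groups contributes to them.

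The spread within a group was not the same for all members. Among the 4 controls, the highest sample was 27.0 times the lowest for Krt26 and 24.4 times for Krt72. For the members found through all layers this ratio was 4.61 for Krt25, 7.04 for Krt27, 3.63 for Krt28 and 5.73 for Krt71. The cuticle keratin Krt73 had a ratio of 3.50 and the companion keratin Krt75 one of 2.39. Among the Z1C2Z samples it was 5.87 for Krt26, 6.04 for Krt72 and between 2.34 and 4.50 for the other members. The coefficient of variation in the control group was thus 122% for Krt26 and 118% for Krt72, against 39.1% for Krt75.

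Levels of different genes were compared as CPM per kb of exon length in the GENCODE annotation. In the Z1C2Z group, Krt25 had a level of 1042 ± 511, Krt71 one of 1006 ± 457 and Krt27 one of 887 ± 500 CPM per kb (SD, n = 4 each). The next were Krt28 with 197 ± 89.0 and Krt73 with 173 ± 64.2, followed by Krt72 with 119 ± 72.4 and Krt75 with 63.0 ± 22.9, while Krt26 had 121 (from 32.7 to 192). The order was not resolved at every step. Krt25 was above Krt71 in 6 of the 8 samples, with a ratio between 0.908 and 1.33, and the levels of Krt28 and Krt73, of Krt26 and Krt72 and of Krt72 and Krt75 each took either order, with the former higher in 4 of 8 samples. Krt71 was above Krt27, Krt27 above Krt28 and Krt73 above Krt26 in all 8. In control-1, the level of Krt72 was 1.51 CPM per kb and that of Krt75 12.9, whereas in Z1C2Z-2 Krt72 had 187 and Krt75 82.6.

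Type I and type II keratins kept a nearly fixed proportion. The summed level of Krt25, Krt26, Krt27 and Krt28 per kb, divided by that of Krt71, Krt72 and Krt73, was 1.75, 1.52, 1.55 and 1.57 in the control samples and 1.52, 1.83, 1.80 and 1.60 in the Z1C2Z samples. The highest ratio was 1.2 times the lowest, while the summed level of the members varied 22.2-fold. The groups overlapped in this ratio, at 1.6 ± 0.1 in the control group and 1.69 ± 0.15 in the Z1C2Z group (SD, n = 4 each).

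**Figure D2:**
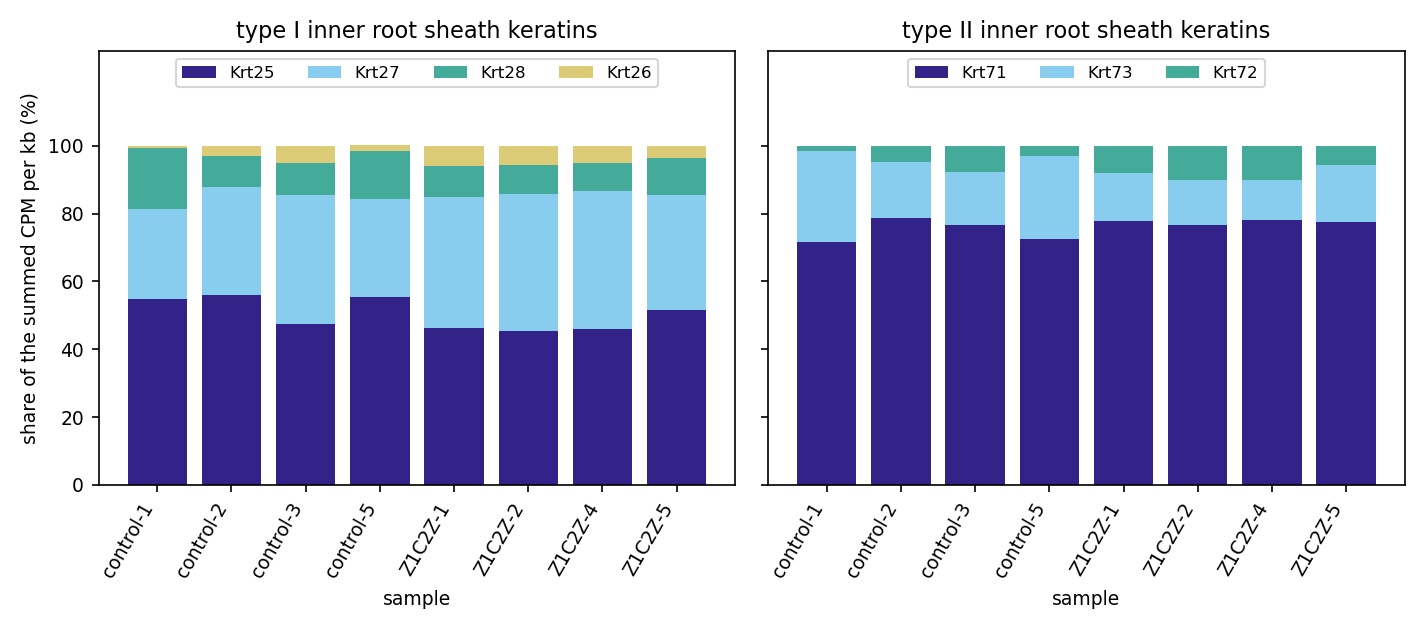
Composition of the inner root sheath keratin RNA in each sample, as the percentage that each gene makes of the summed CPM per kb of the type I keratins (left) and of the type II keratins (right). Krt25 and Krt71 make the largest share in every sample, while the share of Krt26 is 0.857% in control-1 and 6.03% in Z1C2Z-1 and that of Krt72 is 1.64% in control-1 and 10.1% in Z1C2Z-2.

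The composition within each type also differed between samples. Krt25 made up 54.7, 56.1, 47.5 and 55.4% of the type I RNA in the control samples and 46.3, 45.4, 46.0 and 51.5% in the Z1C2Z samples. Krt27 had 26.8, 31.8, 37.9 and 29.0% in the control samples and 38.5, 40.4, 40.6 and 34.1% in the Z1C2Z samples. This share was highest in Z1C2Z-4 and Z1C2Z-2 and lowest in control-1 and control-5. Krt71 stayed between 71.7 and 78.7% of the type II RNA in all 8 samples, while Krt73 ranged from 11.8% in Z1C2Z-4 to 26.7% in control-1 and Krt72 from 1.64% to 10.1%. The companion keratin Krt75 stood at 19.5, 8.82, 6.99 and 16.8% of the level of Krt71 in the control samples and at 6.25, 5.80, 6.13 and 8.19% in the Z1C2Z samples. This percentage was highest in control-1 and control-5, where Krt71, its denominator, was itself lowest. The pattern is thus in part built into the measure.

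Whether the members changed by different amounts was tested on the difference of each member's log2 CPM from that of Krt71 in the same library, which does not depend on library scaling. Over the 7 pairs, 0 passed an exact two-sided permutation test after Benjamini-Hochberg adjustment and 0 had an unadjusted p under 0.05. The largest differences were those of Krt26, at 1.23 on the log2 scale above the change of Krt71 (exact p = 0.0571, adjusted p = 0.120), and Krt72, at 1.09 (exact p = 0.0571, adjusted p = 0.120). Krt75 changed by less than Krt71, with a difference of -0.87 (exact p = 0.0571, adjusted p = 0.120). Krt75 minus Krt71 was -2.49 ± 0.71 in the control group and -3.36 ± 0.22 in the Z1C2Z group (SD, n = 4 each). Krt73 differed by -0.60, Krt28 by -0.38, Krt27 by 0.33 and Krt25 by -0.15. Without control-3, Krt25, Krt26, Krt72 and Krt75 each had an exact permutation p of 0.0286 and an adjusted p of exactly 0.05, so 0 were under the threshold, with differences of -0.23, 1.61, 1.43 and -1.13. These values do not show that the members changed alike, since the smallest p that 4 samples against 4 allow is 0.0286.

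**Figure D3:**
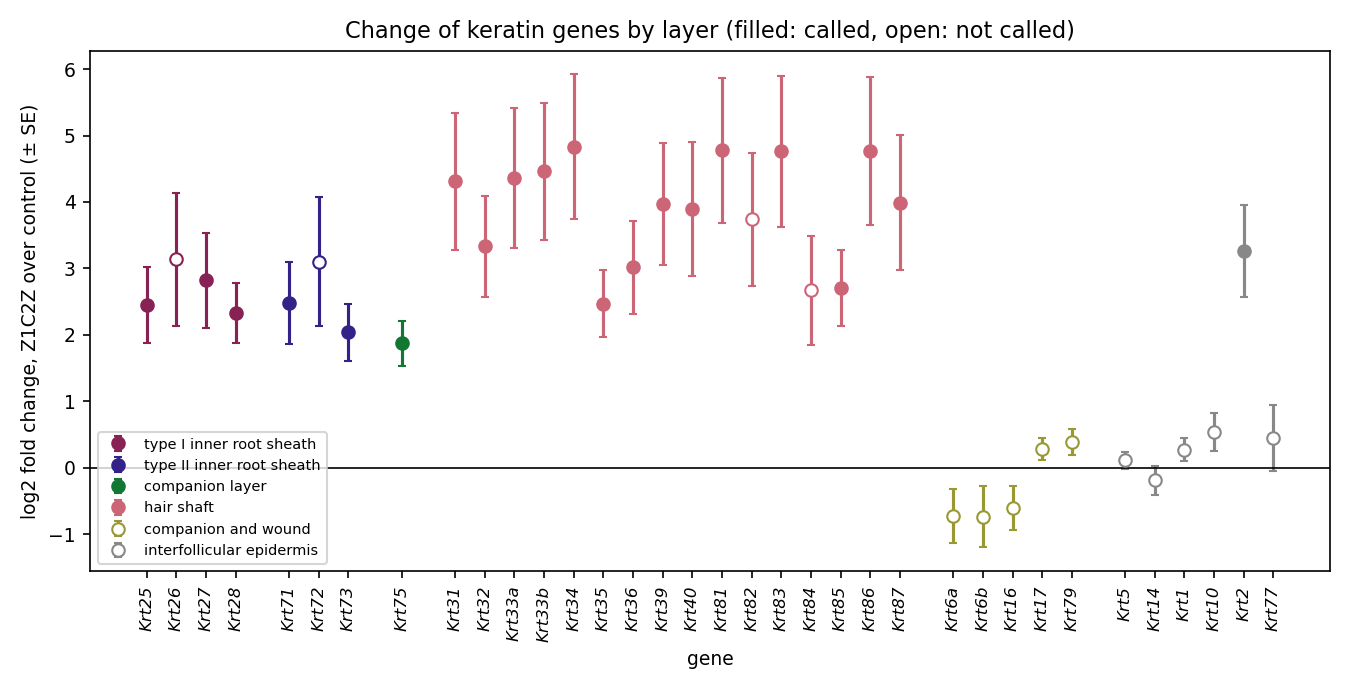
Log2 fold change of the Z1C2Z group over the control group for keratin genes of different layers, with standard errors from edgeR's quasi-likelihood test (filled, called at an adjusted p under 0.05 and a fold over 2; open, not called). The inner root sheath and companion keratins lie between 1.87 and 3.14 and the hair shaft keratins between 2.47 and 4.83. The companion and wound keratins other than Krt75 lie between -0.74 and 0.39. The interfollicular epidermal keratins lie between -0.19 and 0.54, apart from Krt2 at 3.26.

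Krt71 was then set against genes of neighbouring layers in the same way, over 8 pairs. Against Krt5 and Krt14, the keratins of basal keratinocytes, Krt71 lay at -2.55 ± 1.30 and -3.24 ± 1.56 on the log2 scale in the control group and at 0.09 ± 0.79 and -0.35 ± 0.93 in the Z1C2Z group (SD, n = 4 each). The differences of 2.64 (exact permutation p = 0.0286, adjusted p = 0.114) and 2.89 (exact permutation p = 0.0571, adjusted p = 0.114) did not pass the adjusted threshold, which 0 of the 8 pairs passed. The smallest exact p that 4 samples against 4 allow is 0.0286, and a lone pair at that value cannot pass after adjustment over 8 pairs. These values therefore do not show that Krt71 changed like these genes. Krt5 itself had 1752 ± 178 and 1884 ± 258 CPM in the control and Z1C2Z groups (SD, n = 4 each, adjusted p = 0.621 in edgeR), and its log2 change of 0.11 became negative once the sample numbers entered as a block. Against the outer root sheath keratins Krt17 and Krt15 the differences were 2.47 (exact permutation p = 0.0571, adjusted p = 0.114) and 1.81 (exact permutation p = 0.114, adjusted p = 0.152). Against Krt35 and Krt85, the first keratins made in the hair shaft, they were 0.25 (exact permutation p = 0.429) and 0.02 (exact permutation p = 0.914). Krt71 minus Krt85 was 2.58 ± 0.43 in the control group and 2.60 ± 0.19 in the Z1C2Z group (SD, n = 4 each).

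Of 12 other genes of inner root sheath structure and regulation, all tested, 3 were called higher and 0 lower, with a median log2 fold change of 0.73. Those called were Padi1 (log2 fold change 2.73, adjusted p = 0.0485 in edgeR) and Padi3 (2.62, adjusted p = 0.0491 in edgeR), which convert arginine to citrulline in sheath proteins, and Dlx3 (1.55, adjusted p = 0.0299 in edgeR), a homeobox factor of hair differentiation. Tchh encodes trichohyalin, the protein of the sheath's granules that is cross-linked to the keratin filaments. It had 670 ± 609 CPM in the control group and 4120 ± 1781 CPM in the Z1C2Z group (SD, n = 4 each), without overlap, a log2 change of 2.62 (SE 0.73, adjusted p = 0.0568 in edgeR). The difference of Krt71 from Tchh changed by -0.35 (exact permutation p = 0.114, adjusted p = 0.152). Gata3, a transcription factor needed for the inner root sheath lineage, had 51.5 ± 14.9 and 95.2 ± 17.3 CPM (SD, n = 4 each) and rose by 0.89 (adjusted p = 0.0374 in edgeR), under the fold threshold. Cdsn, the corneodesmosin gene of epidermis and sheath, had a log2 change of 0.41 (adjusted p = 0.0944 in edgeR).

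The genes whose profile was closest to the mean log2 CPM of the 8 members were Prr9, Crnn, Fbp1, Crym, Padi3, Cpm, Cryba4, Kcnk16, Ctse and Rhpn2, with Pearson correlations from 0.9964 to 0.9995 over the 8 samples. A correlation over 0.99 was found for 43 genes that are not members. Both groups enter this measure, so a gene that differs between the groups scores high, and the values describe likeness only. Prr9 encodes a proline-rich protein. It had 167 ± 173 CPM in the control group and 1442 ± 872 CPM in the Z1C2Z group (SD, n = 4 each), a log2 change of 3.11 (adjusted p = 0.0537 in edgeR). Crnn, which encodes cornulin, rose from 24.6 ± 23.6 to 207 ± 113 CPM (SD, n = 4 each, adjusted p = 0.0465 in edgeR). Fbp1, a gluconeogenic phosphatase gene, rose by 2.50 and Crym, which encodes mu-crystallin, by 2.93 on the log2 scale (adjusted p = 0.0373 and 0.0472 in edgeR). The cathepsin E gene Ctse had a log2 change of 2.80 (adjusted p = 0.0587 in edgeR).

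Of the 16 hair shaft keratins, the layer inside the sheath, 14 were called higher and 0 lower, with a median log2 fold change of 3.98. Krt35 was at 2.47 and Krt85 at 2.70, within the range of the sheath keratins. The keratins of the later shaft Krt34, Krt81, Krt83 and Krt86 had the largest changes, at 4.83, 4.78, 4.76 and 4.77. Krt31, Krt33a, Krt33b and Krt87 were at 4.31, 4.36, 4.46 and 3.99, and the groups overlapped for all of these but Krt31. In all, 4 of the 16 had a smaller change than Krt26, the highest of the members. Among 8 regulators of the hair matrix, 5 were called higher, among them Foxn1 (2.26), Hoxc13 (2.11), Msx2 (2.09) and Lef1 (1.74), all with an adjusted p in edgeR of at most 0.0315. All 7 melanocyte genes were called higher, with log2 fold changes between 1.25 (Dct) and 2.27 (Oca2).

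Of the genes listed for companion and wound keratins other than Krt75, for the outer root sheath and follicle stem cells and for the interfollicular epidermis, 1 was called. Of 5 companion and wound keratins, 0 were called in either direction by edgeR or DESeq2, and 0 had an unadjusted p under 0.05 in edgeR. Krt6a had 1533 ± 667 CPM in the control group and 921 ± 447 CPM in the Z1C2Z group (SD, n = 4 each, adjusted p = 0.273 in edgeR), and Krt6b a log2 change of -0.74 (adjusted p = 0.328 in edgeR). Of 7 outer root sheath and follicle stem cell genes, 0 were called by edgeR or DESeq2, while 6 had an unadjusted p under 0.05 in edgeR, against 28.0% of all genes, and 4 an adjusted p under 0.05 at any fold. Sox9, a transcription factor gene of the outer root sheath and stem cells, rose by 0.82 (adjusted p = 0.0303 in edgeR) and Lgr5, a stem cell receptor gene, by 0.76 (adjusted p = 0.0337 in edgeR), both without overlap and named after their values were seen. Neither passed the adjusted threshold when Z1C2Z-4, Z1C2Z-2, control-5, Z1C2Z-1 or control-2 was left out. In each of these fits but the one without control-2, 0 of all genes passed, so those fits are not particular to Sox9 and Lgr5. Krt15 had a log2 change of 0.86 (adjusted p = 0.108 in edgeR), and Cd34 fell by 0.34 on the log2 scale (adjusted p = 0.0487 in edgeR), under the fold threshold. Nfatc1, also of this list, fell by 0.71 without overlap (adjusted p = 0.0362 in edgeR). This change was under the fold threshold too, and the gene was named after its value was seen. Of 6 interfollicular epidermal keratins, 1 was called higher, Krt2, whose level was 0.272 ± 0.162 CPM in the control group and 2.62 ± 1.95 CPM in the Z1C2Z group (SD, n = 4 each). Krt1 and Krt10 were at 0.27 and 0.54 (adjusted p = 0.337 and 0.257 in edgeR).

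**Figure D4:**
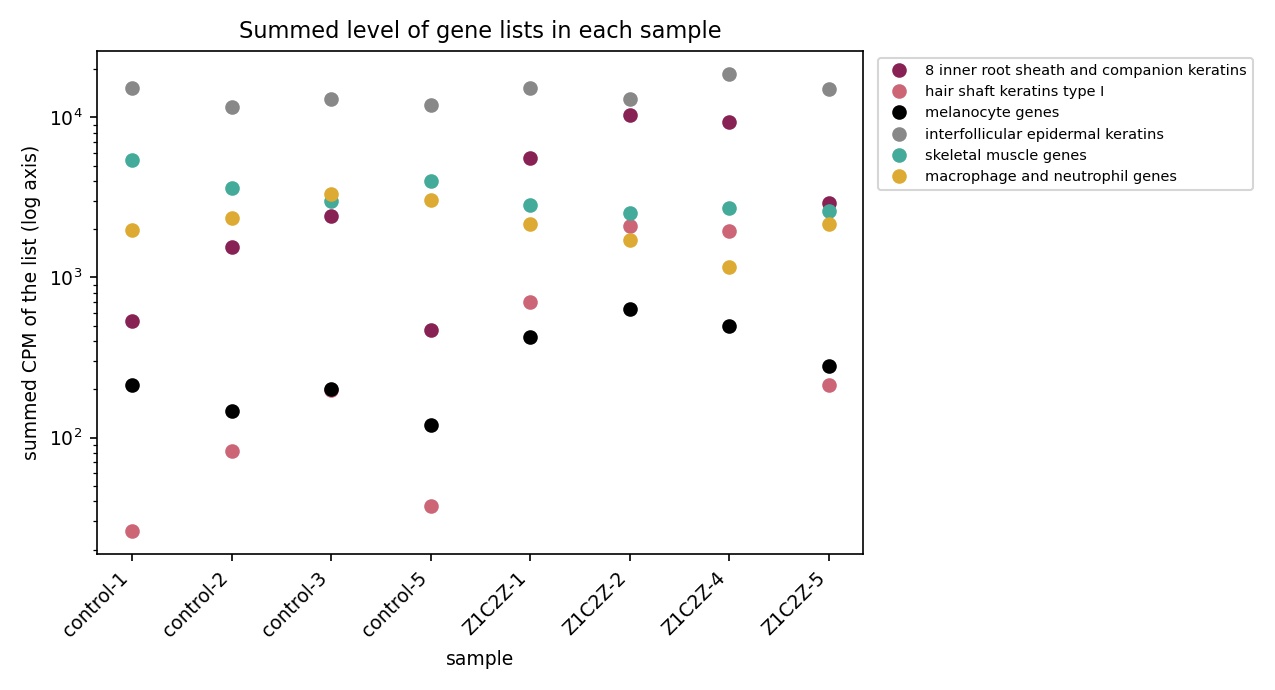
Summed level in CPM, on a log axis, of the 8 inner root sheath and companion keratins and of 5 marker lists in each of the 8 samples. The sum of the 8 keratins is 469 to 2420 CPM in the control samples and 2938 to 10399 CPM in the Z1C2Z samples, and that of the skeletal muscle genes is 3014 to 5423 CPM and 2533 to 2818 CPM.

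Marker lists of 3 other tissues gave 0 calls in edgeR. The summed level of 7 skeletal muscle genes was between 3014 and 5423 CPM in the control samples and between 2533 and 2818 CPM in the Z1C2Z samples, without overlap, and all 7 had a log2 fold change under 0, with Acta1 at -0.86 (adjusted p = 0.0303 in edgeR) and Myh1 at -0.61 (adjusted p = 0.0341 in edgeR). With a muscle score as covariate, chosen after the data were seen, 0 members were called and 6 had an unadjusted p under 0.05, against 24.8% of all genes. All 8 stayed over 0 with smaller fitted log2 changes, 1.57 for Krt71 in place of 2.48, 1.70 for Krt26 in place of 3.14, 1.67 for Krt72 in place of 3.10 and between 1.42 and 1.86 for the other members. The fitted fold was thereby divided by 1.31 (Krt75) to 2.72 (Krt26). The 6 fibroblast genes summed to between 54834 and 78015 CPM against 43054 to 60493 CPM, with overlap, and had Col3a1 at -0.53 and Col1a2 at -0.37. The 7 macrophage and neutrophil genes summed to between 1969 and 3341 CPM against 1161 to 2167 CPM, also with overlap, and S100a9 was at -1.36 (adjusted p = 0.0795 in edgeR). In these 3 lists, in that order, 4, 6 and 3 genes had an unadjusted p under 0.05 in edgeR, against 28.0% of all genes, and 2, 2 and 0 an adjusted p under 0.05 at any fold. In DESeq2 2 of the macrophage and neutrophil genes were called lower. The lowest count of any of these genes in a sample was 77. The summed muscle level did not overlap between the groups, so a part of muscle and the group difference cannot be told apart with the muscle covariate. With it, the genes called higher went from 326 to 4 and those called lower from 189 to 11. The part of these tissues in the levels of the sheath keratins was not tested. On the first principal component of all genes, Z1C2Z-5 lay at -0.291 and Z1C2Z-4 at 67.7, with the control samples between -62.9 and -12.2.

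Members share sequence, which the counting could have divided between them. Of the 50-base words in the transcripts of Krt25 and Krt27, 10.9% and 11.1% also occurred in another keratin gene, for the most part in each other. For Krt28 the share was 2.41%, for Krt71 1.4%, for Krt73 1.27% and for Krt72 0.158%, and for Krt26 and Krt75 0.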

How the data were processed

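Wound skin RNA of the 4 control and 4 treated samples was sequenced after rRNA depletion, per the labels. The values the authors deposited are raw read counts for 18540 genes, not normalized. The aligner, counting program, genome build and strand setting are not given in the sources used here. The number of sample columns left unused was 0.

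Samples were grouped by their titles. Genes were kept by filterByExpr (15147 genes), scaled by TMM and tested with edgeR 4.0.16 (quasi-likelihood, R 4.3.3) with Benjamini-Hochberg adjustment over all genes. The study states a general test for comparing groups and no count model, and edgeR was used because the values are counts. Log2 CPM used a prior count of 2. Standard errors were derived from the F statistic. Within-library differences used exact permutation tests. Exon lengths came from GENCODE vM21 and promoters from RefSeq (GRCm38.p6), matched by symbol for all 8 genes.

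The members and lists were chosen with earlier results of these data known. The genes chosen for naming were the members, up to 4 called and the 2 most abundant genes of each list. The genes set against Krt71 and the 10 genes closest in profile were also chosen. Not all of these are named in the text, which names Sox9, Lgr5, Nfatc1, Wif1 and Corin besides. A correlation of deviations of same-numbered samples (-0.101, -0.0623 and 0.323 for numbers 1, 2 and 5) did not establish pairing. No pair of libraries agreed within sampling noise (chi-square of at least 21.8 per degree of freedom). Alternatives were DESeq2 1.42.0, RLE scaling, TMM without keratin and keratin associated protein genes, other filters, a block, a muscle covariate, a prior count of 0.5 and each sample left out. The steps were tested on simulated counts. At this depth the members' counts, from 83 upward per sample, were limited by the spread between samples.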

Additional observations from a re-analysis of the deposited data

How the results depend on the processing

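All 8 members kept a log2 fold change over 0 in all 15 alternatives, with fitted values between 1.42 and 4.53. The count of members called higher was 6 with RLE scaling, with TMM without keratin and keratin associated protein genes and with either filter, 8 with DESeq2 and 8 with the sample number as a replicate block. It was 0 with the muscle covariate and between 0 and 8 when 1 sample was left out. The count of members called lower was 0 throughout. Over all genes, those called higher numbered 326 of 15147 in the main fit. They numbered 316 with RLE scaling, 326 with TMM without keratin and keratin associated protein genes and 433 with DESeq2. With no low-count filter 347 of 18413 genes were called higher, and with at least 10 counts in every sample 234 of 14290. The number was 4 with the muscle covariate and 271 with the block, and between 0 and 463 when 1 sample was left out. Those called lower numbered 189, 333 with DESeq2, 11 with the muscle covariate and 184 with the block, and between 0 and 316 when 1 sample was left out. Without Z1C2Z-1, Z1C2Z-2, Z1C2Z-4 or control-5, 0 genes passed the adjusted threshold of edgeR, while 4208, 3137, 3100 and 3223 genes had an unadjusted p under 0.05. The cause was not tested. The shared numbers 1, 2 and 5 do not mark a known pairing. Number 3 occurs only among the controls and number 4 only among the treated samples. In the block fit, control-3 and Z1C2Z-4 therefore do not inform the group difference, so this fit does not check the result on all 8 samples. Members without overlap numbered 6, against 8.45% of all genes tested, and between 6 and 8 when 1 sample was left out. Leaving out a sample cannot create overlap, and the share over all genes was not computed in those fits. Tests within libraries gave 0 calls with a prior count of 0.5, with RLE scaling and with 1 sample left out, where the smallest p of 3 samples against 4 is again 0.0286. Scaling hardly enters these differences, so the run with RLE scaling adds little. A lone pair at the smallest p cannot pass after adjustment, so these runs could hardly give calls. Without control-3 the adjusted p of 4 members against Krt71 was exactly 0.05. Of the other genes named, apart from Nfatc1, which was not followed over the alternatives, 5 turned sign in 9 fits, all with values near 0. With the block, Fabp4 was at -0.00, Scd1 at -0.07 and Krt5 at -0.03. Mgst1 was at 0.01 with the muscle covariate. Leaving out 1 sample gave -0.14 to 0.22 for Fabp4, -0.05 to 0.15 for Scd1 and -0.34 to 0.00 for Krt14.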

Other observations

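Of 7 dermal papilla genes, 1 was called lower and 0 higher, with 4 of the 7 over 0 and a median log2 change of 0.04. This was Fgf7, a fibroblast growth factor made by dermal cells, which fell from 57.7 ± 21.3 to 22.7 ± 7.57 CPM (SD, n = 4 each), a log2 change of -1.35 (adjusted p = 0.0337 in edgeR). Crabp1, a retinoic acid binding protein gene of the papilla, had a log2 change of -0.81 (adjusted p = 0.0695 in edgeR). In the other direction, Wif1, which encodes a Wnt inhibitor, rose by 0.56 without overlap (adjusted p = 0.0341 in edgeR) and Corin, a protease gene of the papilla, had a log2 change of 0.80 (adjusted p = 0.0897 in edgeR), both named after their values were seen. Wif1 did not pass when Z1C2Z-4, Z1C2Z-2, control-5, Z1C2Z-1 or control-2 was left out. In each of these fits but the one without control-2, 0 of all genes passed, so those fits are not particular to Wif1. Of 5 sebaceous gland genes, 0 were called by edgeR or DESeq2, with 2 at an unadjusted p under 0.05 in edgeR, against 28.0% of all genes tested. Scd1, which encodes a stearoyl-CoA desaturase, had 2002 ± 356 and 2049 ± 313 CPM (SD, n = 4 each, adjusted p = 0.911 in edgeR). Of 5 adipocyte genes, 0 were called by edgeR or DESeq2, with 4 at an unadjusted p under 0.05 in edgeR, against the same 28.0%, and Cfd, which encodes adipsin, had a log2 change of -0.45 (adjusted p = 0.157 in edgeR).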
